A study of Mus musculus with 10 samples.

Results

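The proteasome genes of interscapular brown fat (iBAT) were compared between mice with and without adipocyte cardiolipin synthase. They were taken as every row of the all-genes table whose symbol is Psm followed by a letter from a to g and a number. This gave 49 of 15075 genes, of which 48 reached the minimum level for testing among 11244 tested genes. RNA came from the iBAT of 5 Control and 5 AdCKO mice on a C57BL/6 background, with 1 library per mouse. All mice were 20 weeks old and were kept at room temperature. AdCKO mice carry a floxed Crls1 gene and a Cre recombinase driven by the adiponectin (Adipoq) promoter, so deletion is directed to adipocytes and other cell types of the tissue keep the gene. Control mice are labelled wild-type, and by the study's methods they were floxed on both alleles and lacked Cre. Crls1 encodes the enzyme that joins the last precursors into cardiolipin, the signature phospholipid of the inner mitochondrial membrane.

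The proteasome degrades proteins that carry ubiquitin chains. Its 20S core is a stack of rings of alpha (Psma) and beta (Psmb) subunits with the proteolytic sites inside, and the 19S regulatory particle of ATPases (Psmc) and non-ATPase subunits (Psmd) binds, unfolds and admits the substrate. Cells exposed to interferon replace the catalytic beta subunits Psmb5, Psmb6 and Psmb7 with the immunosubunits Psmb8, Psmb9 and Psmb10, which favours peptides for MHC class I. In brown fat, the transcription factor Nfe2l1 (NRF1) is known to maintain proteasome gene expression and protein quality during thermogenesis.

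Values are reads per kb of exon after normalization, and log2 fold changes are AdCKO minus Control on the scale of log2(value + 1). A gene was called when its Benjamini-Hochberg adjusted p from limma, over all tested genes, was under 0.01. Crls1 itself read 813 to 1291 in Control libraries and 193 to 249 in AdCKO libraries, with no overlap. Summed normalized reads were 7615403 to 8171138 per Control library and 5419800 to 5843024 per AdCKO library. The scaling between libraries therefore bears on every direction below: the median log2 fold change of all tested genes was -0.011 as deposited and 0.46 when every library was set to the same total. Control replicate 3 stood apart from the other Control libraries in MHC class I, interferon and macrophage genes, and AdCKO replicates 1, 2 and 4 held skeletal muscle transcripts. Proteasome genes called only without Control replicate 3 are given with and without it. The calls kept and lost without AdCKO replicates 1, 2 and 4 are given after the cell markers. Control replicate 3 was picked out by its values in genes reported here, so p-values without it describe the other libraries and do not count as tests.

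Of the 48 tested proteasome genes, 16 were called lower and 1 was called higher in AdCKO mice. Among all tested genes 53.6% were called, 28% lower and 25.6% higher. The log2 fold change was below 0 for 36 of the proteasome genes and above 0 for 12, with a median of -0.16 against -0.011 over all tested genes. The groups of libraries did not overlap for 19 genes lower in AdCKO mice and for 2 genes higher, beside 26.4% and 24.5% of all tested genes (50.9% in either direction). The 16 lower genes kept between 70.2% and 87.2% of the Control level. Another scaling changed the direction: once every library had the same total, none of the 48 genes was called lower and 30 were called higher, against 9.77% and 60.6% of all tested genes. With quantile normalization 7 were called lower and 6 higher, against 31.1% and 22.5%. The lower ones were Psma3, Psma6, Psmb7, Psmc4, Psmd3 and Psmg1, also called lower as deposited, and Psmf1. The higher ones were Psmb5, Psmb10, Psmc2, Psmd4, Psmd7 and Psmd8.

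The calls were then counted by part of the complex, beside 28% lower and 25.6% higher among all tested genes. In the 20S core 9 of 14 tested genes were called lower and 0 higher, with a median log2 fold change of -0.26, or -0.25 relative to all tested genes. In the 19S regulatory particle 5 of 17 were called lower, a share near that of all tested genes, and 1 higher, with a median of -0.16. The 3 immunosubunits had a median of 0.80 with 0 called. Of the 4 activators 1 was called lower, with a median of -0.11, and of the 7 assembly chaperones 1 was called lower, with a median of -0.15. Set against the all-gene median, the core stood at -0.25 when library totals were equal and at 0.021 with quantile normalization, and the regulatory particle at -0.14 and 0.072. Summed over its genes, the core reached 9563 ± 547 (SD, n = 5) in Control and 8268 ± 115 in AdCKO libraries, which is 86.5% of Control. The regulatory particle reached 7951 ± 273 and 7060 ± 243, or 88.8%. As a share of all normalized reads, the order was the other way round: all proteasome genes together took 0.325% to 0.373% of a Control library and 0.411% to 0.438% of an AdCKO library.

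**Figure D1:**
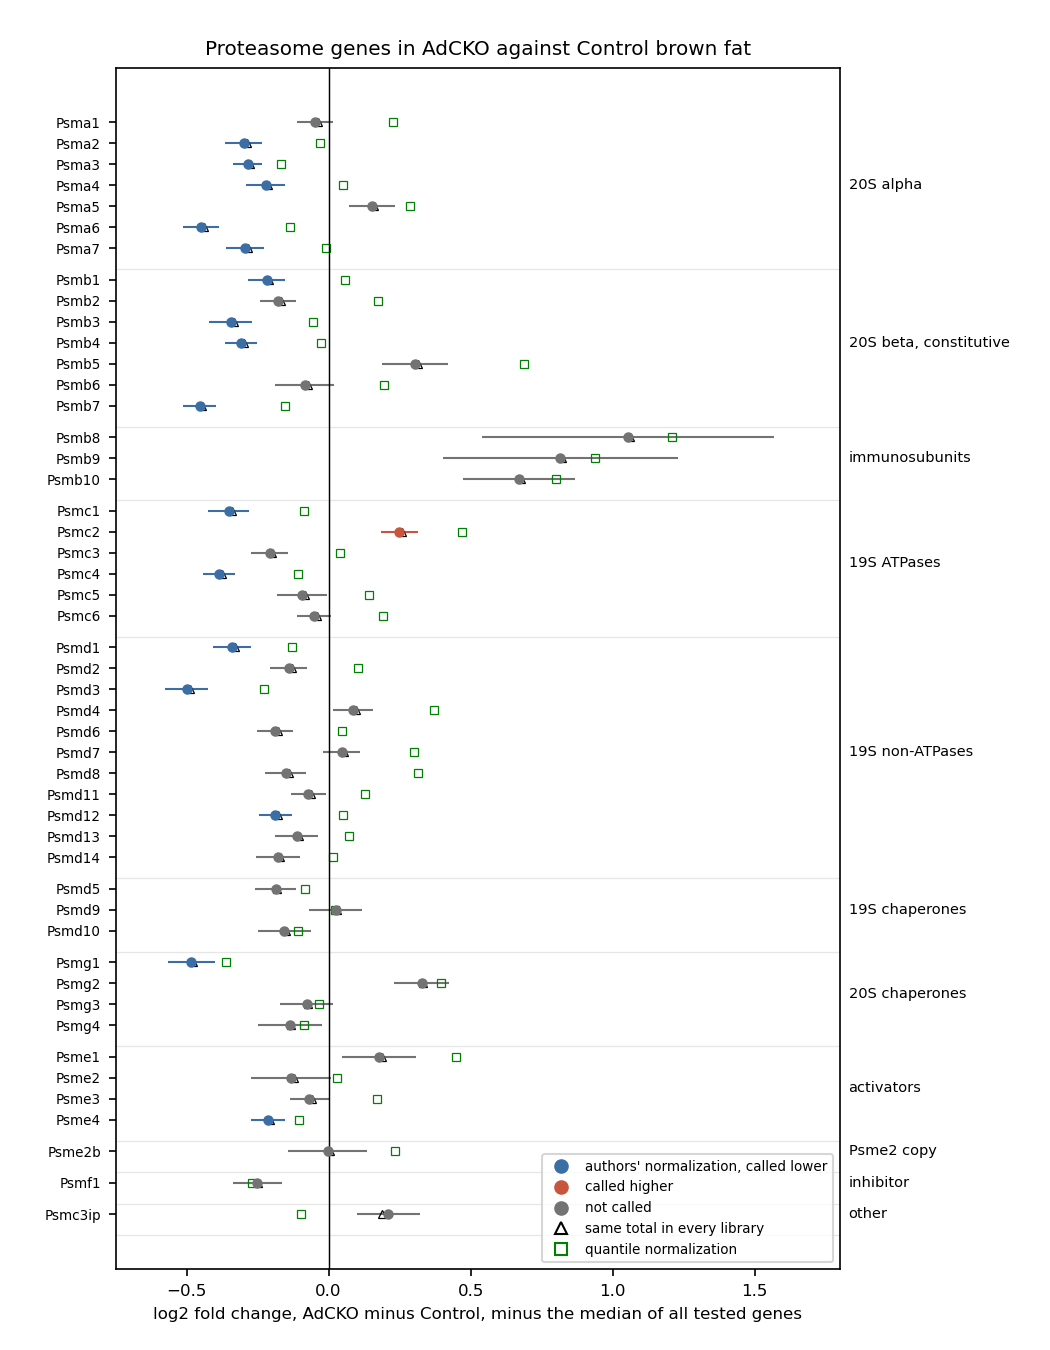
Change of each tested proteasome gene, with log2 fold change (AdCKO minus Control) less the median of all tested genes on the horizontal axis and genes by role on the vertical axis. Circles with bars are the deposited normalization ± SE from limma (5 libraries per group), triangles the same total per library and squares quantile normalization. Most core genes lie below 0 as deposited and with the same total, many move to about 0 or above with quantile normalization, and Psmb8, Psmb9 and Psmb10 lie above 0 in all 3.

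The alpha subunits form the outer rings of the core and its gate. Of the 7 tested, 5 (Psma2, Psma3, Psma4, Psma6 and Psma7) were called lower. Psma6 read 929, 980, 1029, 964 and 1011 in Control replicates 1 to 5 and 700, 730, 669, 773 and 701 in AdCKO replicates 1 to 5. Every AdCKO library was below every Control library. The log2 fold change was -0.46 (SE 0.06, adjusted p = 3.95e-05), and with the same total per library it was 0.022. Psma3 was the tightest of the lower genes, at 141 to 145 in Control and 113 to 122 in AdCKO libraries (log2 fold change -0.30, adjusted p = 0.000332). Psma2 (-0.31), Psma7 (-0.31) and Psma4 (-0.23) completed the group, and with the same total per library all 4 of these values turned positive, between 0.17 and 0.25. The Psma4 call was lost in 8 of the 10 fits that left out 1 library. Psma5 went the other way without reaching the threshold: its values were 156, 130, 149, 141 and 133 in Control and 174, 160, 152, 162 and 134 in AdCKO libraries. These ranges overlapped, with a log2 fold change of 0.14 and an adjusted p of 0.143. Psma1 had a log2 fold change of -0.06 with overlapping groups. Psma8, the alpha subunit of the testis, was at 0.698 to 0.861 in all libraries and was not tested.

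Psmb1, Psmb2, Psmb3 and Psmb4 are the beta subunits of the standard core without the catalytic sites. Psmb4 was at 760 to 805 in Control and 588 to 654 in AdCKO libraries, without overlap (log2 fold change -0.32, adjusted p = 0.000307). Psmb3 (-0.35) and Psmb1 (-0.23) were also called lower, although the Psmb3 groups overlapped at their ends and the Psmb1 call was lost in 8 of the 10 fits without 1 library. Psmb2 had a log2 fold change of -0.19 and an adjusted p of 0.019, above the threshold, while its AdCKO libraries (835 to 868) all lay below its Control libraries (905 to 1062). With the same total per library these 4 genes had positive values, from 0.13 for Psmb3 to 0.29 for Psmb2.

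The 3 catalytic subunits of the standard core gave 3 different results. Psmb7, which carries the trypsin-like site, read 916, 995, 910, 900 and 942 in Control and 645, 695, 710, 669 and 658 in AdCKO libraries. The groups lay far apart relative to their spread, with a log2 fold change of -0.46 (SE 0.06, adjusted p = 2.23e-05), and AdCKO mice kept 72.4% of the mean Control level. With the same total per library the value was 0.016. Quantile normalization gave -0.23 and kept the lower call (adjusted p = 0.0022). Psmb5, which carries the chymotrypsin-like site, read 676, 1118, 987, 879 and 1019 in Control and 1076, 1163, 1176, 1130 and 1110 in AdCKO libraries. Of the 5 Control libraries, 4 lay below all AdCKO libraries, and Control replicate 2 lay among them. The log2 fold change was 0.29 (SE 0.12), with an adjusted p of 0.042, above the threshold, and of the core genes it was the highest. Quantile normalization and the same total per library both gave a higher call for Psmb5, at 0.61 and 0.77. Psmb6, which carries the caspase-like site, read 525, 823, 713, 614 and 663 in Control and 581, 642, 600, 617 and 654 in AdCKO libraries. The AdCKO libraries fell inside the wide Control range, and the log2 fold change was -0.10 with an adjusted p of 0.442. Control replicate 1 was the lowest Control library for Psmb5 and Psmb6, and without it the log2 fold change was 0.18 for Psmb5 (adjusted p = 0.062) and -0.18 for Psmb6 (adjusted p = 0.097). In the full set the spread of both genes was much smaller among AdCKO libraries.

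The promoters of Psmb5 and Psmb6 are shown because, among the constitutive beta subunits matched to the RefSeq promoter table, they hold the core of the antioxidant response element (TGACNNNGC), the kind of element that NRF1 binds. Each window runs from 250 bases before to 50 after the gene's start, reads 5′ to 3′ on the gene's strand, and has the matching letters in capitals. The sequences are from RefSeq's GRCm38.p6 table, and each had 1 exact match in mm9, the build of the deposited values: Psmb5 at chr14:55236783-55237082 on the minus strand and Psmb6 at chr11:70338609-70338908 on the plus strand.
Psmb5: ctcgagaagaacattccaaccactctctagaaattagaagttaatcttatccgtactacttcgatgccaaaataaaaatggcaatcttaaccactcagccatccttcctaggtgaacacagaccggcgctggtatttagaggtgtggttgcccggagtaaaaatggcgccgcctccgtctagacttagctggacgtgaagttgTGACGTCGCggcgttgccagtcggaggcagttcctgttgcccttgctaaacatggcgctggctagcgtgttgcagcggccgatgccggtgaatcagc
Psmb6: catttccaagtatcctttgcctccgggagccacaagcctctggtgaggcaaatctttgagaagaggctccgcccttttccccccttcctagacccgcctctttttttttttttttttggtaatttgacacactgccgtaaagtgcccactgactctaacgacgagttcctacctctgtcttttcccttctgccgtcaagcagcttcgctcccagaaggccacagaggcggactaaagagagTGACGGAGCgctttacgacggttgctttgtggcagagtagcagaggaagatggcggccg
The match begins 47 bases before the start in Psmb5 and 9 bases before it in Psmb6. Searched on both strands, TGACNNNGC was in the promoters of 6 of 41 proteasome genes matched by symbol (14.6%). It was in those of 14% of all 27025 genes with a RefSeq promoter and of 17.4% of the tested ones. The 6 genes were Psmb5, Psmb6, Psmc6, Psmd12, Psmd9 and Psme4. The CCAAT box (CCAAT) was in 14 of the 41 (34.1%), beside 41.1% of all genes with a promoter and 42.3% of the tested ones. It was in 5 of the 7 matched alpha subunits (Psma1, Psma2, Psma3, Psma6 and Psma7).

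The immunosubunits were higher in AdCKO libraries than in 4 of the 5 Control libraries, and Control replicate 3 overlapped them. Psmb8, the interferon-inducible form of Psmb5, read 95.6, 104, 602, 68.4 and 72.0 in Control and 423, 222, 208, 339 and 171 in AdCKO libraries. The highest value of the gene was therefore in a Control mouse, and the lowest AdCKO library was above the other 4 Control libraries. In limma the log2 fold change was 1.04 (SE 0.51), with an adjusted p of 0.092, and without Control replicate 3 it was 1.61 with an adjusted p of 0.000149. That library was picked out by its values in these same genes, so the adjusted p without it follows from the choice. Psmb9, the form of Psmb6, read 69.2, 106, 380, 80.3 and 61.8 in Control and 275, 155, 153, 225 and 158 in AdCKO libraries. It followed the same order, with a log2 fold change of 0.80 (SE 0.41, adjusted p = 0.105), and of 1.26 (adjusted p = 0.000212) without that library. Psmb10, the form of Psmb7, read 76.0, 127, 188, 119 and 96.7 in Control and 224, 169, 171, 206 and 158 in AdCKO libraries. Control replicate 3 reached into the AdCKO range here too, though it was not the highest. Psmb10 had a log2 fold change of 0.66 (SE 0.20, adjusted p = 0.011), and 0.83 (adjusted p = 0.000582) without Control replicate 3. All 3 values were also positive with the same total per library (1.14 to 1.52) and with quantile normalization (0.72 to 1.13), and both scalings called Psmb10 higher. With AdCKO replicates 3 and 5 alone, the AdCKO libraries low in skeletal muscle transcripts, they were 0.60 for Psmb8, 0.53 for Psmb9 and 0.50 for Psmb10, and none was called. That fit kept Control replicate 3 and left out AdCKO replicates 1 and 4, the highest AdCKO libraries for all 3 genes. Whether muscle transcripts had a part in the smaller values was not tested.

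**Figure D2:**
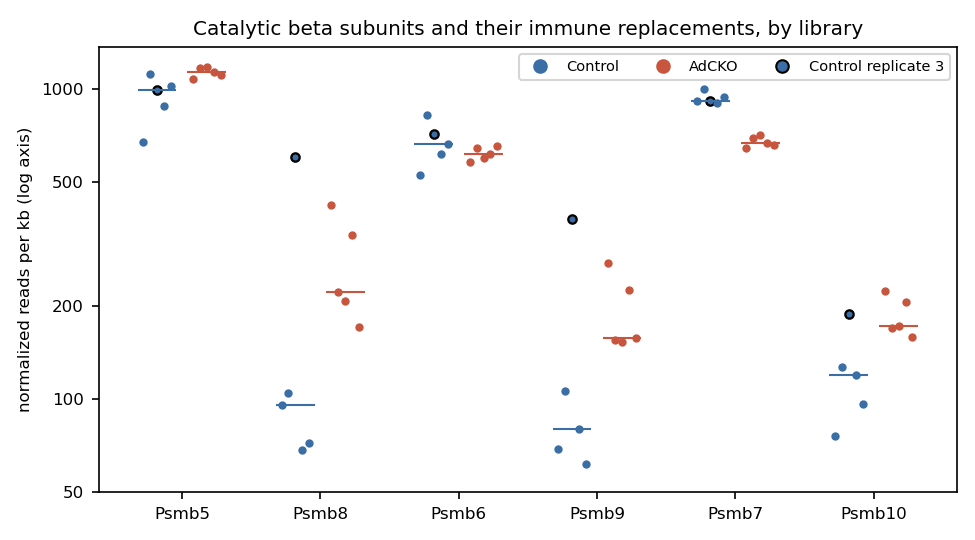
Normalized reads per kb (log axis) of the catalytic beta subunits, each beside its immune replacement, with 1 point per library, bars at the group medians and a black ring on Control replicate 3. In Psmb8 and Psmb9 that library, at 602 and 380, lies above all AdCKO libraries while the other Control libraries lie below them, and in Psmb7 the groups are separate in the opposite direction under the deposited normalization (log2 fold change -0.46, and 0.016 with the same total per library).

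Psmb8 and Psmb9 lie in the MHC region of chromosome 17 with the peptide transporter genes. In mm9, Psmb9 (34319044 to 34324275, minus strand) lies 225 bases before Tap1 (34324501 to 34334170, plus strand), and Psmb8 (34335140 to 34338399, plus strand) follows 969 bases after Tap1 and 3024 bases before Tap2. Psmb9 and Tap1 thus start back to back. Tap1, which carries peptides into the endoplasmic reticulum and was named here for its position after its values were seen, read 52.6 to 155 in Control libraries and 96.2 to 250 in AdCKO libraries. Its log2 fold change was 0.97 (adjusted p = 0.0136), and 1.24 (adjusted p = 0.000576) without Control replicate 3. For Tap2 the log2 fold change was 0.00 with an adjusted p of 0.995. Within Psmb8, 187 exon bases are shared with a gene model on the other strand (Gm20496), and counting by strand is not stated for these values.

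The promoters of Psmb8 and Psmb9 are shown because both genes respond to interferon in other settings and share this locus. The capitals mark a gamma-activated site (TTCNNNGAA) in Psmb8 and a CCAAT box, read on the other strand, in Psmb9. The windows are chr17:34334890-34335189 on the plus strand for Psmb8 and chr17:34324226-34324525 on the minus strand for Psmb9, each with 1 exact match in mm9.
Psmb8: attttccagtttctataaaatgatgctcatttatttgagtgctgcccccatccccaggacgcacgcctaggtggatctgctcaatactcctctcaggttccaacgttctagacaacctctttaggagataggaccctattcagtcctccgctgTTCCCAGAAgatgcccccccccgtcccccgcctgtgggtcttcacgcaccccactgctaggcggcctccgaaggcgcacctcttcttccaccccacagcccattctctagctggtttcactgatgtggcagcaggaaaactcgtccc
Psmb9: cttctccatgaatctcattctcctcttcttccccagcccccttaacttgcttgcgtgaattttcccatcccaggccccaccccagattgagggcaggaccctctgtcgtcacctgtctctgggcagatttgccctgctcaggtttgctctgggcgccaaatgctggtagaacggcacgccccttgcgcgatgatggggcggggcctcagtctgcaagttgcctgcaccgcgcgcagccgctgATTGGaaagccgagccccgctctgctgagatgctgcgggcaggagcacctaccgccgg
The match begins 97 bases before the start of Psmb8 and 8 bases before that of Psmb9. TTCNNNGAA was in the promoters of 3 of the 41 proteasome genes (7.32%), Psmb8, Psmd2 and Psmg1, beside 9.55% of all genes with a promoter and 8.24% of the tested ones. The letters of an interferon-stimulated response element (GAAA, any 2 bases, GAAA) were in 5 of the 41 (12.2%), those of Psmb3, Psmd4, Psmd9, Psme1 and Psmg4. All genes with a promoter had 3.99% and the tested ones 3.64%. They were in none of the 3 immunosubunit windows.

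The ratio of an immunosubunit to the subunit it replaces does not depend on the scaling between libraries when all genes share 1 factor. Psmb10 to Psmb7 was 0.083, 0.128, 0.207, 0.133 and 0.103 in Control and 0.347, 0.243, 0.241, 0.307 and 0.240 in AdCKO libraries. The groups did not overlap, even with Control replicate 3. The mean log2 ratio differed by 1.12 (p = 0.00794 in an exact permutation test with 2 sides, which is as low as 5 against 5 can go, and 0.0397 adjusted over 5 ratios). It was higher in 5 of 5 AdCKO libraries than in any Control library. Psmb10 stood at 153% of Control and Psmb7 at 72.4%. Psmb8 to Psmb5 was 0.0707 to 0.610 in Control libraries and 0.154 to 0.393 in AdCKO libraries, with a difference of 0.75 (exact p = 0.238, adjusted 0.298). Psmb9 to Psmb6 was 0.0932 to 0.533 and 0.241 to 0.473, with a difference of 0.90 (exact p = 0.119, adjusted 0.291). In both, Control replicate 3 alone overlapped the AdCKO range, since the other Control libraries reached 0.142 and 0.132 at most. Without that library the differences were 1.29 and 1.33, each with an exact p of 0.00794, as low as 4 against 5 can go, and an adjusted p of 0.0132. Leaving out the only overlapping library fixed this separation, so these p-values do not count as tests. Each leave-out of an AdCKO library moved the adjusted p of Psmb10 to Psmb7 to 0.0794, with differences between 1.04 and 1.17.

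**Figure D3:**
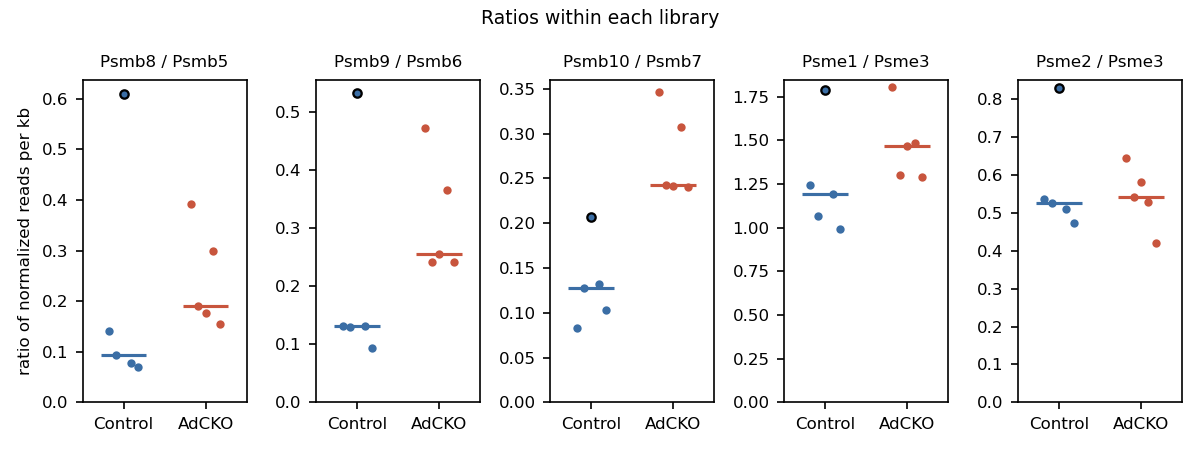
Ratios of normalized reads per kb within each library for 3 immunosubunits to the subunits they replace and for the activators Psme1 and Psme2 to Psme3, with 1 point per library, bars at group medians and a black ring on Control replicate 3. The AdCKO libraries lie above all Control libraries in Psmb10 to Psmb7 (0.240 or more against 0.207 or less), and in the other 4 ratios the groups overlap.

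The 19S ATPases form the ring that unfolds substrates. Psmc4 read 617, 684, 654, 641 and 651 in Control and 468, 498, 482, 500 and 516 in AdCKO libraries. The groups were well apart, with a log2 fold change of -0.40 (SE 0.06, adjusted p = 6.11e-05) that became 0.083 with the same total per library. Psmc1 was also called lower (-0.36, and 0.12 with the same total). Psmc2 was the 1 proteasome gene called higher. It read 255, 257, 285, 296 and 291 in Control and 330, 350, 320, 308 and 323 in AdCKO libraries, without overlap. Its log2 fold change was 0.24 (SE 0.07, adjusted p = 0.00681), positive under all 3 scalings, but the call was lost in 7 of the 10 fits that left out 1 library: those without Control replicate 1, 2 or 3 (adjusted p of 0.0213 at most over the 10 fits) or without AdCKO replicate 1, 2, 3 or 5. Psmc3 was just outside the threshold, with a log2 fold change of -0.22 and an adjusted p of 0.0103. Psmc5 (-0.10) and Psmc6 (-0.06) had overlapping groups.

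Among the 11 non-ATPase subunits, Psmd3, a scaffold subunit of the lid, had the lowest log2 fold change of all proteasome genes. It read 619, 675, 634, 639 and 693 in Control and 448, 497, 390, 478 and 483 in AdCKO libraries. No AdCKO library reached the Control range, and the log2 fold change was -0.51 (SE 0.08, adjusted p = 7.74e-05), or -0.03 with the same total per library. Psmd1, a large base subunit that binds ubiquitin receptors, was at 302 to 334 in Control and 226 to 269 in AdCKO libraries (-0.35, adjusted p = 0.000643, and 0.13 with the same total). Psmd12, a lid subunit, was called at -0.20 (adjusted p = 0.00896), a call kept in 1 of 10 fits without 1 library. Psmd8 was the highest of all proteasome genes per kb, at 1350 ± 118 (SD, n = 5) in Control and 1204 ± 42.2 in AdCKO libraries. Its groups did not overlap, yet its log2 fold change of -0.16 had an adjusted p of 0.0659. Psmd4, a ubiquitin receptor, read 581, 690, 686, 717 and 639 in Control and 687, 729, 696, 657 and 716 in AdCKO libraries, with overlap and a log2 fold change of 0.08 (adjusted p = 0.358). Psmd14, the deubiquitinase of the lid, had -0.19 (adjusted p = 0.0446), and Psmd6 had -0.20 (adjusted p = 0.0158) with no overlap. Psmd2, Psmd7, Psmd11 and Psmd13 lay between -0.15 and 0.04 with overlapping groups. With the same total per library and with quantile normalization, Psmd4 (0.56 and 0.29), Psmd7 (0.52 and 0.22) and Psmd8 (0.32 and 0.23) were called higher. Those scalings called 60.6% and 22.5% of all tested genes higher.

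Psmg1 and Psmg2 encode the partners of a chaperone heterodimer that builds the alpha ring, and their log2 fold changes had opposite signs. Psmg1 read 158, 168, 170, 166 and 166 in Control and 95.1, 116, 129, 127 and 123 in AdCKO libraries. The Control libraries were close together and all AdCKO libraries were below them, with a log2 fold change of -0.49 (SE 0.08, adjusted p = 0.000209) and of -0.02 with the same total per library. Psmg2 read 74.4, 86.8, 92.0, 70.7 and 84.6 in Control and 95.1, 121, 94.6, 107 and 92.4 in AdCKO libraries. The groups did not overlap, but the closest libraries almost met. Its log2 fold change was 0.32 (SE 0.10, adjusted p = 0.0117), above the threshold, and 0.36 (adjusted p = 0.00748) without Control replicate 3. Psmg3 (-0.09) and Psmg4 (-0.15), which form the other alpha-ring chaperone, had overlapping groups. Psmd5, Psmd9 and Psmd10 help to assemble the ATPase base. For Psmd5 the values were 127, 133, 116, 116 and 122 in Control and 107, 118, 104, 112 and 95.7 in AdCKO libraries. The AdCKO libraries were mostly but not always the lower ones, with a log2 fold change of -0.20 (adjusted p = 0.0273). Psmd9 read 52.1, 75.7, 57.8, 66.5 and 60.7 in Control and 61.5, 62.4, 59.4, 66.3 and 64.1 in AdCKO libraries, with a log2 fold change of 0.01. Psmd10 had -0.17 (adjusted p = 0.13).

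The activators open the core without ATP. Psme1 and Psme2 form the interferon-inducible 11S ring, Psme3 its nuclear counterpart, and Psme4 (PA200) a monomeric cap. Psme1 read 421, 431, 643, 412 and 365 in Control and 570, 454, 507, 502 and 478 in AdCKO libraries. As in the immunosubunits, Control replicate 3 was the highest library and the other 4 Control libraries lay below all AdCKO libraries. Psme1 had a log2 fold change of 0.17 (SE 0.13, adjusted p = 0.28), and 0.30 (adjusted p = 0.00787) without that library, which was again picked out by its own value. Psme2 read 182, 212, 298, 176 and 174 in Control and 204, 189, 200, 179 and 155 in AdCKO libraries. Control replicate 3 was again the highest, but the AdCKO libraries did not separate from the other Control libraries, and the log2 fold change was -0.14 (adjusted p = 0.389). Psme2b, a near-identical copy of Psme2 on chromosome 11, was at 298 to 444 in Control and 260 to 398 in AdCKO libraries, and how reads were divided between the copies is uncertain. Psme3 read 339, 404, 359, 345 and 368 in Control and 316, 349, 345, 338 and 370 in AdCKO libraries, with overlapping groups and a log2 fold change of -0.08. Psme4 read 132, 133, 121, 134 and 137 in Control and 105, 115, 119, 110 and 114 in AdCKO libraries. Its groups did not overlap, with a log2 fold change of -0.22 (SE 0.06, adjusted p = 0.00595) that turned to 0.25 with the same total per library, and the call was kept in 2 of 10 fits without 1 library. The ratio of Psme1 to Psme3 was 0.990 to 1.79 in Control and 1.29 to 1.804 in AdCKO libraries (difference of mean log2 ratio 0.25, exact p = 0.175, adjusted 0.291), and 0.38 (adjusted 0.0198) without Control replicate 3. For Psme2 to Psme3 the difference was -0.06 (exact p = 0.746).

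The promoter of Psme1, at chr14:56197081-56197380 on the plus strand, is shown for its match to the interferon-stimulated response element, in capitals as read on the other strand, which begins 9 bases after the start. In mm9, Psme1 (56197331 to 56200364) lies 5912 bases from Psme2 (56206277 to 56209938, minus strand).
Psme1: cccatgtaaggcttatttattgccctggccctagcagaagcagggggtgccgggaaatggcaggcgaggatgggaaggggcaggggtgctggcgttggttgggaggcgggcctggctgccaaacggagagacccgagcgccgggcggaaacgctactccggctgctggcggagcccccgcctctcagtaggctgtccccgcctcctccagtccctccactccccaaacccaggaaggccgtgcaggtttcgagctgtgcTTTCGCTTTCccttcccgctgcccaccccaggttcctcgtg

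Psmf1, which encodes the inhibitor PI31, was at 59.4 to 66.2 in Control and 44.7 to 60.6 in AdCKO libraries, with a log2 fold change of -0.26 (adjusted p = 0.0174). Psmc3ip matches the symbol rule but encodes a meiotic recombination factor and no proteasome subunit. It was at 11.02 to 17.3 in all libraries, and 385 of its exon bases are shared with Mlx on the other strand.

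The spread within a group was described by the coefficient of variation. The median coefficient of variation was 4.72% in Control and 5.15% in AdCKO libraries for the core, and 5.54% and 6.15% for the regulatory particle, against 10.6% and 10.2% over all tested genes, a comparison that was not matched for expression level. Psmb5 (18.01%) and Psmb6 (16.6%) in Control and Psmc5 (11.5%) in AdCKO libraries were above those all-gene medians. For the immunosubunits it was 97.04% in Control and 28.3% in AdCKO libraries. Control replicate 1 was the lowest Control library for 10 of 14 core and 9 of 17 regulatory genes. Among AdCKO libraries, replicate 3 was the lowest for 9 of 17 regulatory genes and replicate 2 the highest for 9. Per kb, the core genes ranged in Control from Psma5 (142) and Psma3 (143) to Psma6 (982), all other tested core genes being at 546 or more. Regulatory genes ranged from Psmd13 (245) to Psmd8. The 20S chaperones were low, from Psmg2 (81.7) to Psmg1 (166).

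**Figure D4:**
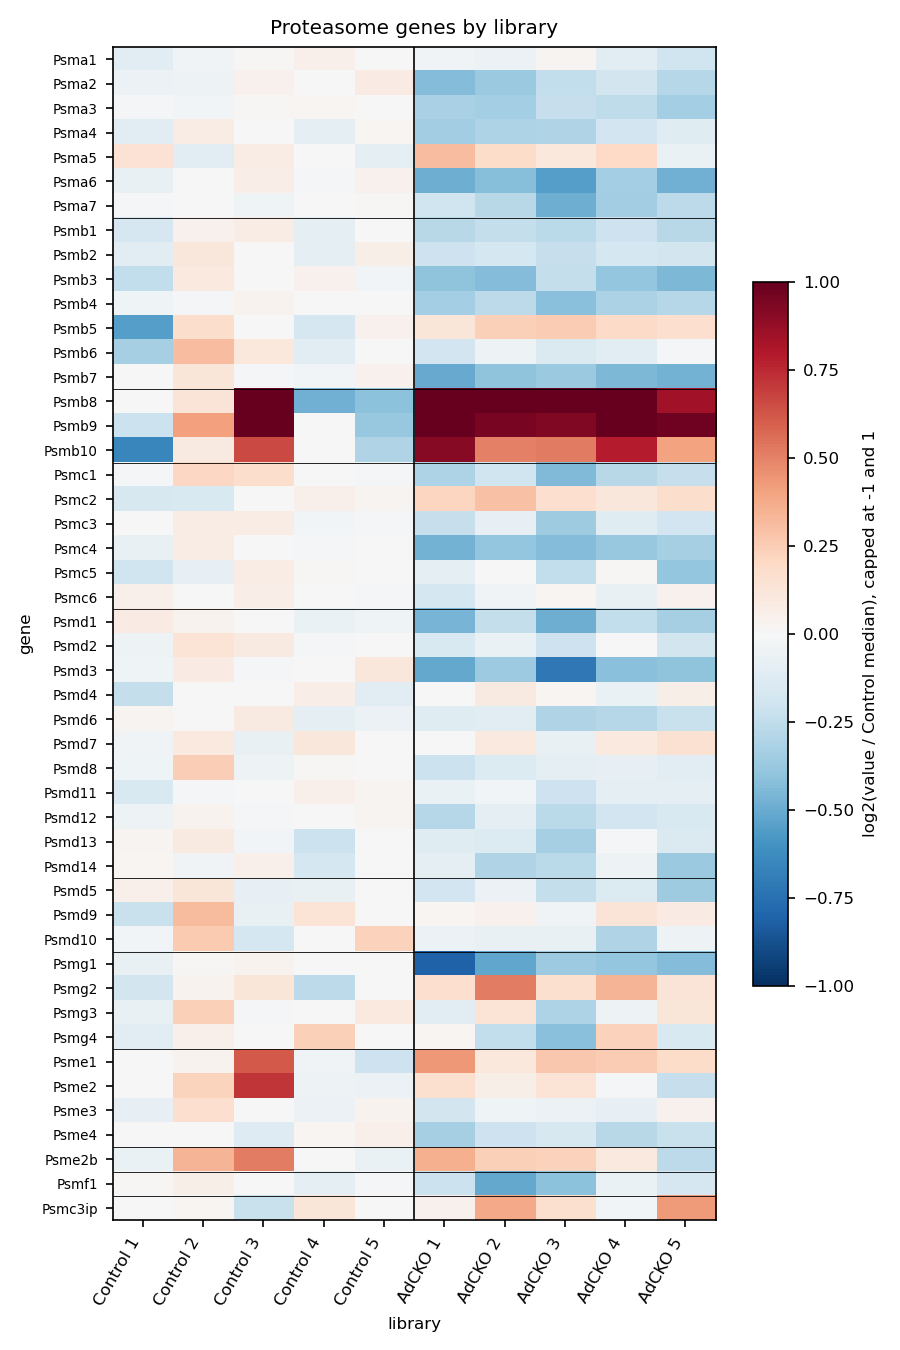
Each proteasome gene (rows, by role) in each library (columns), as log2 of the value over the Control median under the deposited normalization, with the colour scale capped at -1 and 1. The core rows are mostly blue in all 5 AdCKO libraries (9 of 14 genes called lower, beside 28% of all tested genes, and 0 with the same total per library). Control replicate 3 is red in Psmb8, Psmb9, Psmb10, Psme1 and Psme2.

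Genes that work beside the proteasome were called in both directions, beside 28% lower and 25.6% higher among all tested genes. Of 4 subunits and assembly factors with other symbols, Adrm1, a ubiquitin receptor of the regulatory particle, was called lower (log2 fold change -0.34) and Akirin2, which imports proteasomes into the nucleus, was called higher (0.54), while Pomp, which matures the core, had 0.02 and was not called. Of 6 proteasome-bound enzymes and scaffolds, Zfand5 was called higher (0.60) and none lower. Among shuttling ubiquitin receptors, Ubqln4 (-0.52) was called lower and Rad23b (0.24) higher. Uba1, the E1 enzyme that activates ubiquitin, was called lower (-0.33), and Rps27a, which encodes a ubiquitin fused to a ribosomal protein, was called higher (0.86). Rps27a has near-identical copies, so its reads may be divided uncertainly. Of 6 genes of p97, which pulls ubiquitinated proteins out of complexes, and its cofactors, Ufd1l was called lower (-0.36). With the same total per library none of the genes named here as called lower kept the call.

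Of the 8 genes in the NRF1 pathway, 2 were called in each direction, a share near that of all tested genes (28% lower and 25.6% higher). Nfe2l1 was at 1400 ± 140 (SD, n = 5) in Control and 1130 ± 99.2 in AdCKO libraries, with overlapping groups. Its log2 fold change was -0.31 (adjusted p = 0.00873), and 0.17 with the same total per library. Ngly1, the glycanase that processes NRF1, was at 153 to 168 in Control and 98.3 to 117 in AdCKO libraries (-0.58, adjusted p = 7.52e-06, and -0.10 with the same total). The small Maf partners Mafk (1.14) and Mafg (0.46) were called higher under both scalings. Ddi2, the protease that cleaves NRF1, had 0.05 and was not called.

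Several genes for peptide loading and interferon signalling were called higher. Of 10 MHC class I loading genes, 6 were called higher and 0 lower, with a median log2 fold change of 0.58, where 25.6% of all tested genes were called higher. Those with the smallest p were Pdia3 (0.63), Calr (0.54), Canx (0.46) and H2-D1 (1.59). Of the 10 genes, 7 were highest among Control libraries in Control replicate 3, but Pdia3, Calr and Canx were not. In this they differed from Psmb8, Psmb9 and Psmb10. As deposited, Tap1, Tap2, Tapbp (0.30, adjusted p = 0.162) and Erap1 (-0.23, adjusted p = 0.0858) were not called. Tapbp and Erap1 were named after their values were seen. Without Control replicate 3, Tapbp had 0.46 (adjusted p = 0.00914). H2-D1 shares reads with related class I genes, so its level is uncertain. The list's summed level was 10215, 12826, 30622, 10317 and 10612 in Control and 45949, 35113, 32630, 41540 and 27716 in AdCKO libraries. Control replicate 3 was above 1 AdCKO library, and AdCKO replicates 1 and 4, highest for Psmb8, Psmb9 and Psmb10 among AdCKO libraries, were highest here too. Of 8 interferon signalling genes, Irf8 (1.99), Ifngr2 (1.01) and Socs1 (0.97) were called higher (3 of 8 beside the same 25.6%), while Irf1 (0.12) had overlapping groups and was not called.

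Cell markers also moved, and fewer cells of a type and less RNA per cell cannot be told apart in bulk tissue. The counts below stand beside 28% called lower and 25.6% called higher among all tested genes. All 8 macrophage markers were called higher, and their summed level was 461 to 1233 in Control (743 at most without Control replicate 3) and 5861 to 7916 in AdCKO libraries. Most of this sum was Lyz2, at 284 to 905 in Control and 4331 to 6254 in AdCKO libraries. Of the 8 markers, 7 were highest among Control libraries in Control replicate 3. Of 5 tested T and NK cell markers 3 were called higher, with sums over the 7 markers in the table of 40.5 to 82.1 in Control and 69.7 to 230 in AdCKO libraries, highest in AdCKO replicate 1. B cell markers summed to 16.7 to 19.3 in Control and 15.7 to 107 in AdCKO libraries, again highest in AdCKO replicate 1, with 0 of 2 tested called. Dendritic cell markers summed to 40.0 to 57.5 in Control and 68.2 to 98.7 in AdCKO libraries. Of 2 tested, Itgax was called higher, at 4.52 to 8.30 in Control and 28.8 to 46.8 in AdCKO libraries. Zbtb46 went the other way and was not called (log2 fold change -0.31, adjusted p = 0.0188). The 3 neutrophil markers in the table, none of them tested, summed to 7.37 to 9.02 and 12.2 to 17.3. Of these only Csf3r separated the groups, at 3.10 to 4.49 in Control and 7.82 to 12.4 in AdCKO libraries. S100a8 (4.02 to 4.29 and 4.12 to 5.01) and Cxcr2 (0.231 to 0.247 and 0.230 to 0.277) overlapped. All 5 fibroblast markers were called higher (878 to 1131 against 3496 to 5087), and 1 of 5 endothelial markers was (1303 to 1639 against 1348 to 1833). Of 8 adipocyte markers, 6 were called lower, among them Prdm16 (-1.29), Cidea (-1.63), Ucp1 (-1.42) and Plin1 (-0.62). Dio2, named after its values were seen, had 0.90 (adjusted p = 0.0145) in the other direction, and with the same total per library 1.38 (adjusted p = 0.000725). That scaling ended the calls of Plin1, Adipoq and Pparg, with adjusted p of 0.155, 0.792 and 0.921. The list summed to 205593 to 232324 in Control and 128905 to 153344 in AdCKO libraries, and most of this sum was Fabp4, which was not called (adjusted p = 0.0205). Skeletal muscle markers summed to 104 to 135 in Control libraries and to 6872, 26206, 151, 9960 and 137 in AdCKO libraries. No value of any gene in the table was 0, so a value above 0 does not show that a marker was detected. The part of these cells in the proteasome genes' values was not tested. With Control replicate 3 and AdCKO replicate 1 both left out, Psmb8 (1.43), Psmb9 (1.12), Psmb10 (0.76) and Psmg2 (0.38) were called higher. With AdCKO replicates 3 and 5 alone, 9 of the 17 calls were kept, all of them lower. The calls of Psma2, Psma3, Psma4, Psmb1, Psmb3, Psmc2, Psmd12 and Psme4 were lost. That fit had fewer AdCKO libraries, so lost calls cannot be assigned to the muscle transcripts.

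**Figure D5:**
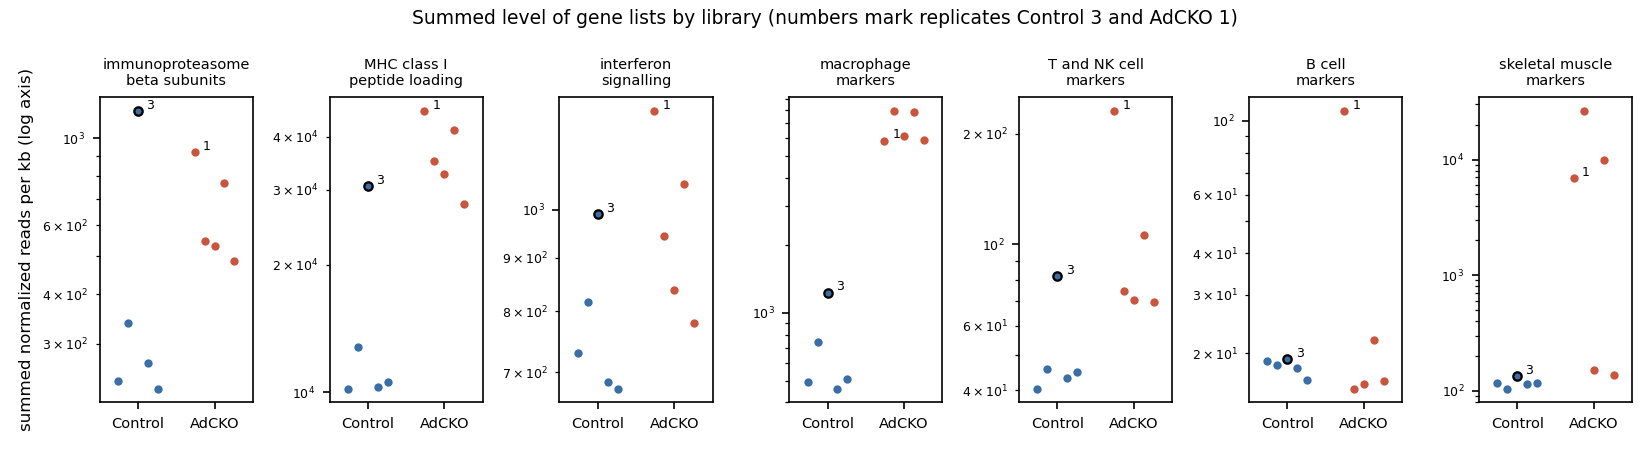
Summed normalized reads per kb (log axis, a separate range in each panel) of the immunosubunits and of 6 other gene lists, with 1 point per library under the deposited normalization and Control replicate 3 ringed. That library is the highest Control library in every panel, and AdCKO replicate 1 is the highest AdCKO library for the immunosubunits (921), MHC class I loading, interferon signalling, T and NK cell and B cell lists.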

How the data were processed

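Polyadenylated RNA from iBAT of 10 mice aged 20 weeks, 5 Control and 5 AdCKO, was sequenced on HiSeq after TruSeq 2 preparation. According to the methods and the submitters' processing notes, the authors aligned reads with STAR to mm9, counted reads in exons by iRNA-seq, and used DESeq2 to normalize. Tool versions are not given in the sources used here. The deposited table gives a signal per kb of exon after normalization. It does not hold counts, since 23.4% to 25.6% of low values fell within 0.1 read of the best whole step, where 20% is expected by chance. Reads could therefore not be recovered and read depth is unknown. The authors' own fold changes, adjusted p-values and lists of called genes were not used, and 0 per-sample columns were left unused.

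Genes with a mean of at least 10 in Control or AdCKO were tested (11244 of 15075) in R 4.3.3 by limma 3.58.1 (two-sided, lmFit then eBayes with an intensity trend) on log2(value + 1), with Benjamini-Hochberg adjustment over all of them and a threshold of 0.01. The pseudocount understates changes of low genes. The study ran DESeq2 on counts, which these values do not allow. The script was tested on simulated data. Ratios were compared by an exact permutation test of 252 assignments, adjusted over 5 ratios, threshold 0.05. Groups and replicate numbers came from the labels. The replicate numbers did not pair the libraries, since the correlation of deviations between same-numbered libraries was between -0.27 and 0.10. Alternatives were other pseudocounts, filters, scalings, variance models, thresholds, a replicate block and leaving out libraries.

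The proteasome genes and all other lists were chosen with earlier results of these data known. Every proteasome gene could be named. Values in every library were given for Psmb5 to Psmb10, Psme1 to Psme4, Psmg1, Psmg2, and the gene with the smallest p in each direction of every other class, with values for the rest by range or fold change. From other lists, at most 4 genes with the smallest p, called genes against their list, and Nfe2l1, Pomp, Irf1 and Crls1 could be named, with exceptions stated. Some genes of these lists are not reported here. Promoter windows and letters were read from RefSeq's table (8 of 49 proteasome genes had no entry) and located in mm9 by exact match. Protein sequences were not analysed here.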

Additional observations from a re-analysis of the deposited data

Results flagged for a closer look

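In 108 sets of 5 libraries (each proteasome gene and ratio in each group), 9 had 1 library far from the other 4 by Dixon's criterion. Chance gives this in about 1 of 20 independent sets. These sets are not independent, since the ratios reuse the genes' values, so that rate cannot be set against the 9. Of the 9, 6 were Control replicate 3, with Psmb8 and Psmb9 flagged both as genes and in their ratios. It read 602 for Psmb8 where the other Control libraries read 68.4 to 104, 380 for Psmb9 where they read 61.8 to 106, and 643 for Psme1 where they read 365 to 431. Its ratios were 0.610 for Psmb8 to Psmb5 (others 0.0707 to 0.142), 0.533 for Psmb9 to Psmb6 (others 0.0932 to 0.132) and 0.829 for Psme2 to Psme3 (others 0.474 to 0.537). The other sets were single genes. Psmd8 read 1557 in Control replicate 2 and 1270 to 1326 in the other Control libraries. Psmb3 read 614 in AdCKO replicate 3 and 530.1 to 553 in the other AdCKO libraries, and Psmd10 read 68.3 in AdCKO replicate 4 and 79.7 to 80.8 in the others.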

How the results depend on the processing

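The calls of proteasome genes depended on the scaling between libraries. With the same total per library the count called lower went from 16 to 0 and the count called higher from 1 to 30, and with quantile normalization they were 7 and 6. The same total per library turned the class medians positive, to 0.21 for the core, 0.32 for the regulatory particle, 0.37 for the activators and 0.33 for the assembly chaperones. Quantile normalization moved them to -0.059 for the core, -0.0089 for the regulatory particle and 0.020 for the activators. Single genes that turned positive with the same total and were called under it or as deposited were Psma1 (0.42), Psma2 (0.17), Psma3 (0.18), Psma4 (0.25), Psma6 (0.022), Psma7 (0.18), Psmb1 (0.25), Psmb2 (0.29), Psmb3 (0.13), Psmb4 (0.16), Psmb6 (0.39), Psmb7 (0.016), Psmc1 (0.12), Psmc3 (0.26), Psmc4 (0.083), Psmc5 (0.38), Psmc6 (0.42), Psmd1 (0.13), Psmd2 (0.33), Psmd5 (0.28), Psmd6 (0.28), Psmd8 (0.32, and 0.23 with quantile normalization), Psmd10 (0.31), Psmd11 (0.40), Psmd12 (0.28), Psmd13 (0.36), Psmd14 (0.29), Psme3 (0.40), Psme4 (0.25) and Psmg3 (0.39). Psme2 (0.34), Psmg4 (0.33), Psmf1 (0.21) and Psme2b (0.47) also turned positive and were called under neither, and of the 36 genes below 0 Psmd3 and Psmg1 stayed negative. The total of a library is part of this alternative's construction, and why the AdCKO totals are lower was not tested.

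Leaving out 1 library gave 12 to 14 genes called lower and 0 to 5 called higher, the 5 without Control replicate 3 (Psmb8, Psmb9, Psmb10, Psme1 and Psmg2). Of the 17 calls, 12 were kept in all 10 such fits, and Psma4, Psmb1, Psmc2, Psmd12 and Psme4 were each lost in 7 to 9 of them. Differences of mean log2 ratio ranged from 0.52 to 1.29 for Psmb8 to Psmb5, from 0.70 to 1.33 for Psmb9 to Psmb6, from 0.98 to 1.31 for Psmb10 to Psmb7 and from 0.17 to 0.38 for Psme1 to Psme3, each highest without Control replicate 3. Chosen after seeing the data, AdCKO replicates 3 and 5 alone gave 9 lower and 0 higher genes, with a regulatory median of -0.22. Leaving out both Control replicate 3 and AdCKO replicate 1 gave 4 higher genes. An adjusted p of 0.05 gave 22 lower and 4 higher. Under the replicate block, which the libraries' deviations did not call for, 12 of the 17 calls were kept and 0 genes were called higher. Paired by number, the difference of 1.12 for Psmb10 to Psmb7 had an adjusted exact p of 0.3125, since 5 pairs allow no p under 0.0625. Other pseudocounts and filters kept all 17 calls, and other variance models lost Psma4 and Psmd12. Read depth is unknown, so no counting interval can be given.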
